A study of Homo sapiens with 12 samples.

Results

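The genes AXIN2, DKK1, LGR5, NKD1, ASCL2, RNF43, ZNRF3, SP5, TCF7, and LEF1, which Wnt signalling switches on in many tissues, were followed in HCT116 cells under 2 stressors. They are 10 of the 60708 genes in the count tables and were selected by symbol, with results of the same treatments known. Their log2 fold changes under either stressor were in view when they were chosen, and are given as a description, with whether each passed the fit over all genes but without a p-value. HCT116 is a human colorectal carcinoma cell line, used here as wild type. The cells were kept for 24 h with oligomycin A (OA), which blocks the ATP synthase of mitochondria, or with tunicamycin (TN), which blocks the N-glycosylation of proteins in the endoplasmic reticulum. There were 12 libraries, with 3 biological replicates for each stressor and 3 for the DMSO vehicle beside each. The labels give 5 µg/mL for both compounds, whereas the methods of the study give a higher dose for OA. All cultures grew in RPMI1640 with fetal bovine serum, and the sources used here do not say whether the replicates came from separate passages or days.

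In the canonical Wnt pathway, a cytoplasmic complex built on AXIN and APC marks β-catenin for degradation. A Wnt ligand at a Frizzled receptor and its LRP co-receptor stops this, and β-catenin then enters the nucleus and switches on targets together with TCF and LEF proteins. Several targets are themselves inhibitors of the pathway and form a negative feedback, and others mark the stem cells at the base of intestinal crypts. HCT116 cells carry a mutation in the β-catenin gene CTNNB1 that protects the protein from degradation, so that their pathway is active without a ligand, and a frameshift in RNF43. The results below hold for this one cell line.

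To show where β-catenin partners could bind, the sequence before the start site is printed for DKK1 and SP5, which had the largest estimated falls together with AXIN2 in both treatments. The 250 bases before the RefSeq start site of the gene are given on the strand of the gene, in assembly GRCh38.p14. Capitals mark 7-letter words that begin with CTTTG and end with AA, AT, TA, or TT, the core of the site that TCF and LEF proteins bind. Both strands were searched, so a word may also read CAAAG after TT, AT, TA, or AA. None of the words found overlaps another. The DKK1 window is chr10:52314031-52314280 and the SP5 window is chr2:170715087-170715336, both on the plus strand.
DKK1: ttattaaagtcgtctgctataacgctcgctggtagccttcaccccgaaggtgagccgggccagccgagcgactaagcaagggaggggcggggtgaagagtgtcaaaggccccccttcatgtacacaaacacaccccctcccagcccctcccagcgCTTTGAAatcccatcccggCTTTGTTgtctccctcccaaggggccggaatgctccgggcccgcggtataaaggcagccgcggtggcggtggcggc
SP5: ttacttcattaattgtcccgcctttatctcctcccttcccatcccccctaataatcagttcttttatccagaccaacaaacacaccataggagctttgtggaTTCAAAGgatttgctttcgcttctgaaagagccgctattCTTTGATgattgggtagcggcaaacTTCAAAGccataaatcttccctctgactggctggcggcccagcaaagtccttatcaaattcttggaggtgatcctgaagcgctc

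The DKK1 window held 2 such words, which began 95 and 76 bases before the start. The SP5 window held 3, which began 148, 109, and 84 bases before it. Of 35116 windows of the same length in the RefSeq table, 11.96% held at least 1 word, 1.21% held at least 2, and 0.122% held at least 3. The table had 7 entries for 5 of the 10 genes, namely DKK1, SP5, LEF1, and 2 start sites each of TCF7 and RNF43. One further word was found 50 bases before the downstream TCF7 start, and none in the windows of LEF1, RNF43, or the upstream TCF7 start. These matches are a description of the letters in the windows and show neither binding nor a cause of any change in RNA.

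The libraries held 9884124 to 24983573 counts. Levels are given as CPM, the reads of a gene relative to the library total after TMM scaling, which sets the totals so that most genes do not differ. A count of 3 or fewer was taken as the floor of detection, which corresponds to 0.118 to 0.315 CPM depending on the library. OA replicate 2 and TN replicate 1 stood apart. The RNA RN7SL1 of the signal recognition particle, a non-coding RNA, took 17.9% and 13.3% of their counts, against 6.02% to 12.5% in the other libraries, and their TMM factors of 0.732 and 0.796 were below those of the others. The changes of the 7 detected genes of the set in OA and TN are given with and without these libraries. The part of RN7SL1 in them was not tested. The epithelial markers EPCAM, CDH1, KRT8, KRT18, KRT19, and CDX2 were above the floor in every library, whereas VIL1, the brush border protein villin, reached at most 3 counts. The 4 leukocyte markers summed to at most 0.666 CPM. The 5 fibroblast markers summed to 4.66 to 12.8 CPM in OA and to 1.42 to 4.59 CPM in the other groups. Of these, COL1A1 was at 1.72 ± 0.528 CPM (SD, n = 3) in the DMSO libraries of OA and at 6.97 ± 4.74 with OA. COL1A2, COL3A1, PDGFRB, and DCN stayed at or below 1.04 CPM in every library. The part of these markers in the results was not tested.

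At baseline, DKK1 stood far above the other targets. Per kilobase of merged exon, the level of DKK1 was 62.2 ± 9.73 CPM (SD, n = 3) in the DMSO libraries of OA and 74.3 ± 9.07 in those of TN. AXIN2 came next, with 4.38 ± 1.58 and 5.18 ± 0.345 CPM per kilobase. Then followed ZNRF3 with 2.00 ± 0.524 and 2.11 ± 0.584, RNF43 with 1.62 ± 0.268 and 2.15 ± 0.280, and SP5 with 1.25 ± 0.735 and 1.65 ± 0.419 CPM per kilobase. These 3 neighbours did not differ beyond their spread, and in 1 DMSO library of OA SP5 was lower still, at 0.437. The lowest detected targets were TCF7, with 0.593 ± 0.00452 and 0.476 ± 0.0997, and NKD1, with 0.501 ± 0.112 and 0.537 ± 0.114 CPM per kilobase. Their order was not the same in both sets of DMSO libraries. The scale of NKD1 depends on its long annotated exons of 17359 bases in all. RNF43 shares 4326 of its 6329 exon bases, and AXIN2 1316 of its 5197, with another gene model on the same strand. If reads there were dropped, their levels per kilobase are too low, here and under stress, and their places in the order are uncertain.

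Under stress this order changed. DKK1 remained the highest at 11.2 ± 6.20 CPM per kilobase in OA and 6.73 ± 1.69 in TN. AXIN2, the second at baseline, came after ZNRF3 and RNF43 in both treatments, at 0.994 ± 0.732 and 0.435 ± 0.134 CPM per kilobase. ZNRF3, at 1.68 ± 0.149 and 1.14 ± 0.0860, and RNF43, at 1.17 ± 0.714 and 1.15 ± 0.0924 CPM per kilobase, now stood between DKK1 and AXIN2. In OA the spread of AXIN2 and RNF43 overlapped, whereas in TN AXIN2 lay below both in every library. NKD1, TCF7, and SP5 were the lowest 3 of the 7 detected genes in both treatments. SP5, with a higher mean than NKD1 and TCF7 at baseline, now had the lowest mean. It was at 0.121 ± 0.109 in OA and 0.184 ± 0.162 CPM per kilobase in TN, although its libraries overlapped theirs.

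Of the 10 genes, 3 gave almost no reads. LGR5, the R-spondin receptor that marks intestinal stem cells, had 0 counts in all 12 libraries, which allows a level of up to 0.118 to 0.315 CPM. LEF1, a DNA-binding partner of β-catenin, had 3 counts in OA replicate 2 and 0 in the other 11 libraries. ASCL2, a transcription factor of intestinal stem cells, had 3 counts in 1 DMSO library of TN, 1 count in another, 1 count in OA replicate 3, and 0 elsewhere. A change of these 3 genes was not detectable at this depth, and they did not pass the filter for testing. LEF1-AS1, the antisense neighbour of LEF1, was at 0 in every library.

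**Figure D1:**
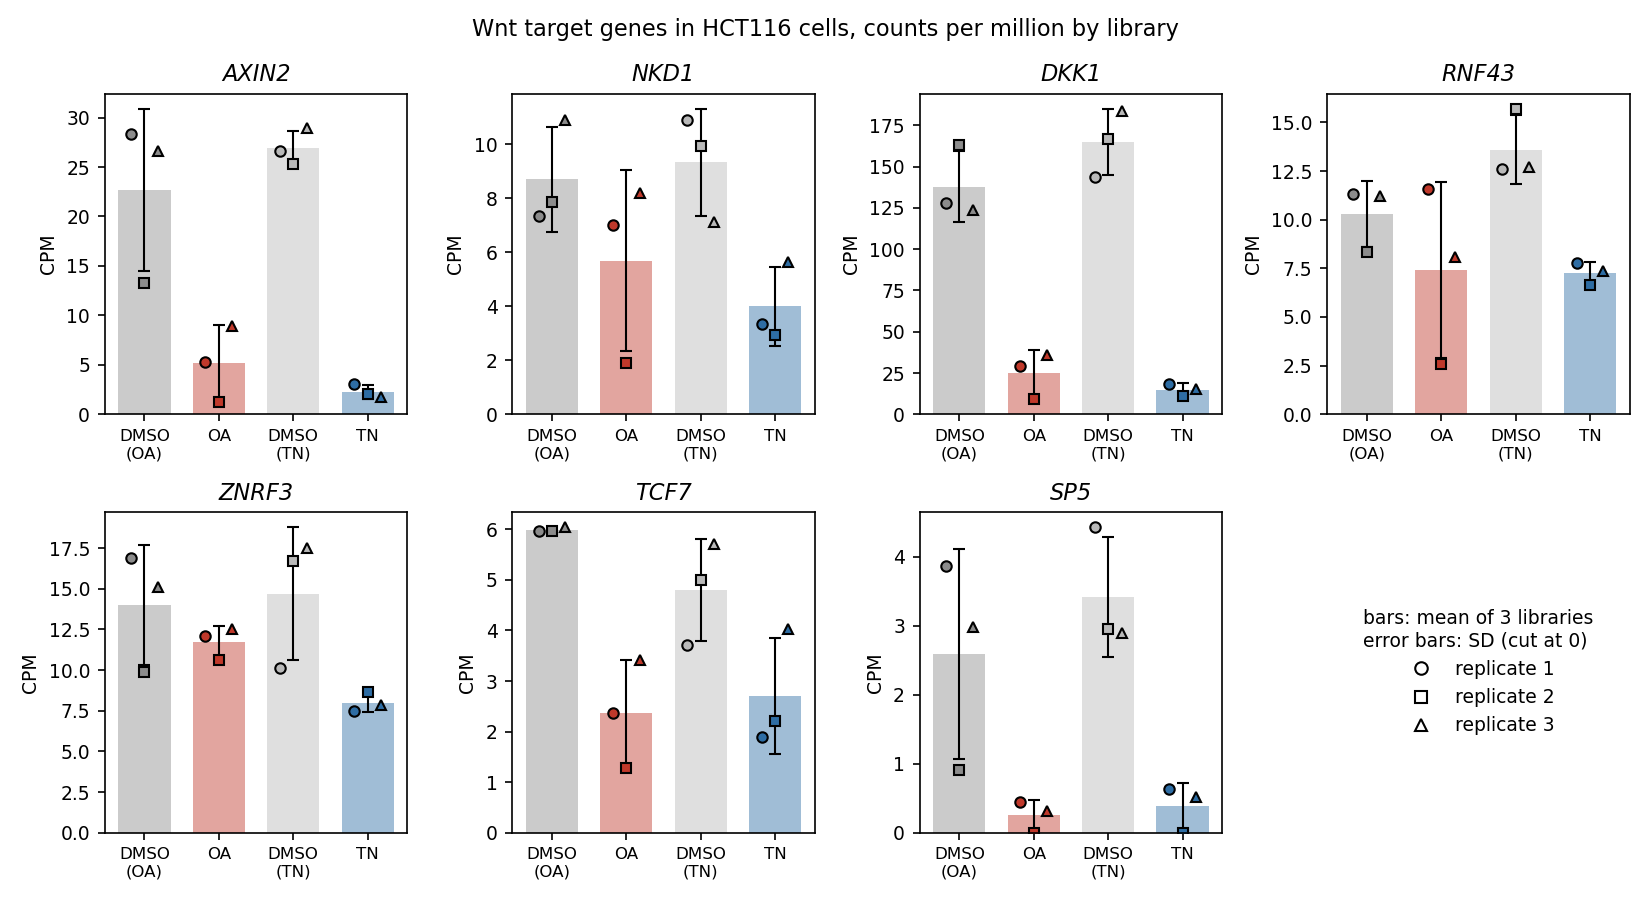
CPM (linear axes from 0) of the 7 detected Wnt target genes in each of the 12 libraries. Bars are means of 3 libraries, error bars are SD, and symbols mark the replicate number. AXIN2, DKK1, and SP5 lie lower in every stressed library than in every DMSO library of the same experiment, and OA replicate 2 (red squares) is the lowest OA library for all 7 genes.

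Of the 7 genes that could be tested, all had a negative log2 fold change in both treatments. Their median was -1.34 in OA and -1.22 in TN, beside -0.02 and -0.03 over all tested genes, of which 51.2% and 51.9% had a negative estimate. The estimates of AXIN2, DKK1, and SP5 correspond to 8.39% to 22.7% of the DMSO level, and the other 4 differed less. A gene passed when its adjusted p from the quasi-likelihood test of edgeR was under 0.05. Of the 7, 1, DKK1, passed as lower in OA, where 1.72% of all 14681 genes did. In TN 3 of the 7, AXIN2, DKK1, and SP5, passed as lower, where 3.34% of 14432 genes did. With the replicate number as a block, 6 of 7 passed in TN, all but TCF7, beside 15.3% of all genes. Every OA library lay below every DMSO library for 4 of the 7, AXIN2, DKK1, TCF7, and SP5, beside 15.5% of all genes. In TN this held for 6 of the 7, all but TCF7, beside 16.8% of all genes. Since these contrasts bear on the choice of the genes, nothing is read from the difference between the members and the background. These are bulk measurements, so fewer cells that transcribe a gene and less RNA per cell cannot be told apart.

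The feedback inhibitors inside the cell were AXIN2 and NKD1. AXIN2 (ENSG00000168646.13, hg38 chr17:65528563-65561648, minus strand) is a scaffold of the complex that degrades β-catenin. Its counts were 28.3, 13.3, and 26.6 CPM in the DMSO libraries of OA and 5.30, 1.29, and 8.90 CPM in the OA libraries. For TN they were 26.6, 25.3, and 28.9 CPM with DMSO and 3.05, 2.02, and 1.71 CPM with TN. The groups did not overlap in either experiment, and TN left the narrower range. The log2 fold change of AXIN2 was -2.14 ± 0.62 (SE) in OA, which did not pass, and -3.58 ± 0.30 in TN, which did. In OA it passed, however, in 6 of 9 other settings, among them DESeq2 and 1 fit of all libraries, and in 0 of the 6 fits that left out a library. The estimates correspond to 22.7% and 8.39% of the DMSO level. Among all tested genes, ordered from the largest fall, AXIN2 was number 121 in OA and number 5 in TN. Its log2 fold change in OA was -1.69 without OA replicate 2 and -2.77 without OA replicate 3, and without TN replicate 1 it was -3.80 in TN. A gene model annotated on the same strand, CTD-2535L24.2, shares 1316 exon bases with AXIN2 and had 0 to 9 counts, so reads in the shared stretch may have been split or dropped.

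NKD1 (ENSG00000140807.7, hg38 chr16:50548396-50649249, plus strand) binds Dishevelled and dampens the signal from the receptor. It gave 7.33, 7.85, and 10.9 CPM with DMSO and 6.99, 1.89, and 8.18 CPM with OA. Beside TN it gave 10.9, 9.94, and 7.11 CPM with DMSO and 3.36, 2.94, and 5.65 CPM with TN. The OA libraries overlapped their DMSO libraries, and the TN libraries did not. Its log2 fold change was -0.61 ± 0.50 in OA and -1.22 ± 0.34 in TN, and neither passed. In TN it passed in 5 of 9 other settings, which were the block, GC offsets with and without the block, DESeq2, and no filter. It passed in 0 of the 6 TN fits that left out a library. The OA estimate rested on replicate 2 and was -0.20 without it. Without TN replicate 1 the TN estimate was -1.07.

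DKK1 (ENSG00000107984.10, hg38 chr10:52314281-52318042, plus strand) is a secreted antagonist that binds the LRP co-receptors, and it is the gene whose upstream window with 2 TCF/LEF words is printed above. With DMSO it stood at 128, 163, and 124 CPM in the OA experiment and at 144, 167, and 184 CPM in the TN experiment. With OA it stood at 29.4, 9.46, and 35.9 CPM, and with TN at 18.4, 10.9, and 15.5 CPM. The highest stressed library of each experiment was well below the lowest DMSO library. DKK1 had a log2 fold change of -2.47 ± 0.46 in OA and -3.47 ± 0.27 in TN, and both passed, with 9.05% of the DMSO level left in TN. DKK1 was number 63 in the order of falls in OA and number 7 in TN. Without OA replicate 2 the OA estimate was -2.09, and without TN replicate 1 the TN estimate was -3.59. The pass in OA was lost, however, when OA replicate 3 or any 1 of the DMSO libraries was left out, and with scaling to library totals, where the estimate was -2.58. DKK1 shares 227 exon bases with PRKG1-AS1 on the opposite strand. This lncRNA had 16 to 37 counts with DMSO and 2 to 8 counts with OA, and 16 to 35 counts with DMSO and 0 to 9 counts with TN. The sources used here do not state which strand column was counted, so reads of this pair in the shared bases might not be told apart. DKK1 itself had 2437 to 4134 counts in the DMSO libraries and 95 to 399 in the stressed ones.

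RNF43 and ZNRF3 are paired transmembrane E3 ubiquitin ligases that remove Frizzled receptors from the cell surface. RNF43 (ENSG00000108375.13, hg38 chr17:58353676-58417595, minus strand) stood at 11.3, 8.32, and 11.2 CPM with DMSO and at 11.6, 2.59, and 8.07 CPM with OA. In the other experiment it stood at 12.6, 15.7, and 12.7 CPM with DMSO and at 7.78, 6.62, and 7.37 CPM with TN. One OA library was as high as the DMSO libraries, 1 was slightly below them, and 1 was far below. All 3 TN libraries were close to each other and below all DMSO libraries. For RNF43 the log2 fold change was -0.47 ± 0.49 in OA and -0.91 ± 0.23 in TN, and neither passed. In TN it passed in 5 of 9 other settings, which were the block, GC offsets with and without the block, library totals, and at least 10 counts per library, and also without TN replicate 1. The OA estimate was -0.05 without OA replicate 2, whereas the TN estimate was -0.92 without TN replicate 1. A second gene model on the same strand, RP5-1171I10.8, shares 4326 exon bases with RNF43 and had at most 12 counts in any library, so RNF43 counts are uncertain in that stretch.

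ZNRF3 (ENSG00000183579.16, hg38 chr22:28883572-29057488, plus strand) had the estimate closest to 0 under OA. Its values were 16.9, 9.86, and 15.1 CPM with DMSO and 12.1, 10.6, and 12.5 CPM with OA. In the TN experiment they were 10.1, 16.7, and 17.5 CPM with DMSO and 7.46, 8.65, and 7.88 CPM with TN. The OA libraries lay inside the range of their DMSO libraries. The TN libraries lay below theirs, although the lowest DMSO library was not far above. ZNRF3 had a log2 fold change of -0.25 ± 0.30 in OA and -0.88 ± 0.28 in TN, and neither passed. In TN it passed in 2 of 9 other settings, which were the block and GC offsets with the block. In OA it passed in 0 of 9. With a library left out it passed in 0 of 6 fits in each treatment. Without OA replicate 2 and TN replicate 1 the estimates were -0.17 and -0.78.

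Among the transcription factors, TCF7 and SP5 were detected. TCF7 (ENSG00000081059.20, hg38 chr5:134114681-134151865, plus strand) encodes TCF-1, a DNA-binding partner of β-catenin. Its DMSO libraries were at 5.97, 5.96, and 6.04 CPM in the OA experiment, and the OA libraries were at 2.36, 1.29, and 3.42 CPM. For the second stressor DMSO gave 3.72, 5.00, and 5.70 CPM and TN gave 1.89, 2.21, and 4.03 CPM. The OA libraries were all lower than their DMSO libraries, whereas TN replicate 3 was above 1 DMSO library. TCF7 and SP5 were the 2 of the 7 whose estimate was lower in OA than in TN. For TCF7 it was -1.34 ± 0.40 in OA and -0.82 ± 0.38 in TN, and neither passed. It passed in 4 of 9 other settings in OA and in 1 of 9 in TN. With a library left out it passed in 0 of 6 fits in each treatment. Without OA replicate 2 and TN replicate 1 the estimates were -1.07 and -0.57. TCF7 shares 210 exon bases with SKP1 on the opposite strand. SKP1 encodes a subunit of the SCF ubiquitin ligase and had 1252 to 3422 counts against 13 to 151 for TCF7, so with an unstated strand column a part of the TCF7 counts could stem from it.

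SP5 (ENSG00000204335.4, hg38 chr2:170715337-170718078, plus strand) is a zinc finger factor induced by Wnt signals, and its upstream window is the one with 3 TCF/LEF words. It had 74, 23, and 59 counts with DMSO and 6, 0, and 3 counts with OA, which is 3.87, 0.907, and 2.99 CPM against 0.442, 0, and 0.311 CPM. In the TN experiment it had 81, 52, and 39 counts with DMSO and 6, 0, and 6 counts with TN, or 4.43, 2.95, and 2.89 CPM against 0.631, 0, and 0.514 CPM. The groups did not overlap, and 1 library of each treatment had no read of the gene. The log2 fold change was -3.26 ± 0.88 in OA, which did not pass, and -3.15 ± 0.75 in TN, which lay at the threshold and just passed. In OA it passed in 6 of 8 other settings and in 0 of the 6 fits that left out a library. SP5 was number 20 in the order of falls in OA and number 11 in TN. Because the treated counts are at or close to the floor, the size of the fall is imprecise. An interval of 2 standard errors on either side ran from -5.03 to -1.49 in OA and from -4.66 to -1.65 in TN. The OA estimate was -4.02 without OA replicate 1 and -2.70 without OA replicate 2. The TN estimate was -3.62 without TN replicate 1 and -2.57 without TN replicate 2. The pass in TN remained only in 1 of the 6 fits that left out a library, the one without TN replicate 1.

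**Figure D2:**
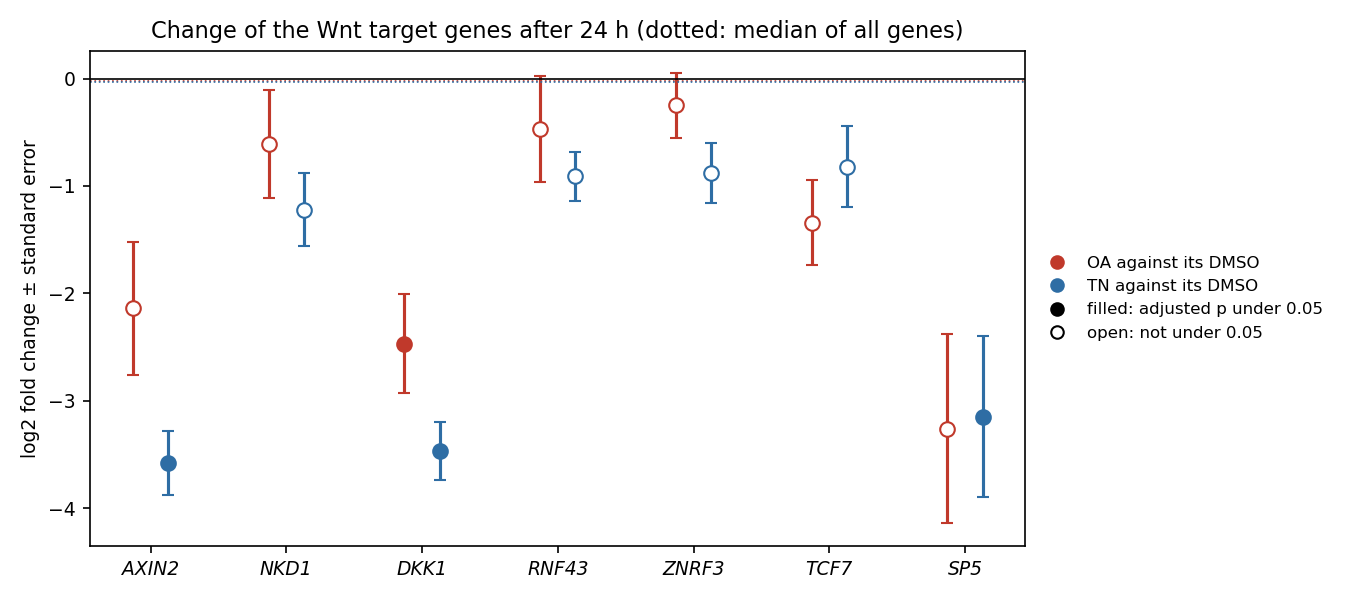
Log2 fold change against the DMSO libraries of the same experiment, with its standard error, for the 7 detected genes in OA (red) and TN (blue). Filled points passed at an adjusted p under 0.05, and dotted lines mark the median of all genes at -0.02 and -0.03. SP5, DKK1, and AXIN2 have the 3 lowest estimates in both treatments, from -2.14 to -3.58.

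To ask whether the response differed between the stressors, the change in OA minus the change in TN was estimated in 1 fit of all 12 libraries. The difference was 1.41 ± 0.73 on the log2 scale for AXIN2, 0.95 ± 0.56 for DKK1, 0.56 ± 0.67 for NKD1, 0.56 ± 0.39 for ZNRF3, and 0.41 ± 0.60 for RNF43, a positive value standing for the lower estimate in TN. For NKD1 and RNF43 it was smaller than its standard error, and for RNF43 it was -0.14 without OA replicate 1. It was -0.61 ± 0.56 for TCF7 and -0.11 ± 1.18 for SP5. With all 12 libraries the interval of 2 standard errors on either side ran from -0.05 to 2.87 for AXIN2. For DKK1 it ran from -0.17 to 2.07. Equal changes lay inside both, as did falls in TN that were larger by a log2 unit or more. Without OA replicate 2 the difference was 1.88 ± 0.45 for AXIN2 and 1.36 ± 0.30 for DKK1. It was 0.99 ± 0.46 for NKD1 and 0.83 ± 0.34 for RNF43 in that fit. The intervals of these genes then left out 0, whereas those of ZNRF3, TCF7, and SP5 did not. Without TN replicate 1 the difference was 1.73 ± 0.79 for AXIN2 and 1.19 ± 0.59 for DKK1. With the replicate block it was 1.21 ± 0.46 and 0.81 ± 0.58. None of the 7 passed. Over all 15429 genes tested with edgeR 0 passed (0%), 348 had an unadjusted p under 0.05, and DESeq2 called 0. The standard errors of the difference were larger than those of either treatment for each of the 7 genes, so that the absence of a pass does not show equal changes. Each stressor was measured at 1 dose and 1 time, and the dose of OA is not the same in both sources.

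The DMSO libraries of both experiments were compared with each other by a test. This contrast was not used to choose the genes, although the same libraries are the controls of the contrasts that were in view. The log2 difference of the DMSO libraries of OA from those of TN lay between -0.36 for SP5 and 0.39 ± 0.23 for TCF7. RNF43 differed by -0.34 ± 0.21 and AXIN2 by -0.18 ± 0.28. For DKK1 it was -0.19 ± 0.17, with an interval of 2 standard errors on either side from -0.53 to 0.15. Without DMSO replicate 2 of OA the difference turned positive for AXIN2, at 0.10, and SP5, at 0.07. The same held for NKD1, at 0.03, and ZNRF3, at 0.19. None of the 7 passed the test of edgeR, and their Benjamini-Hochberg adjusted p lay between 0.774 and 0.992. Over all 15023 genes tested with edgeR 0 passed (0%), 645 had an unadjusted p under 0.05, and DESeq2 called 23. For TCF7 the 3 DMSO libraries of OA were all above the 3 of TN, and for RNF43 all below.

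**Figure D3:**
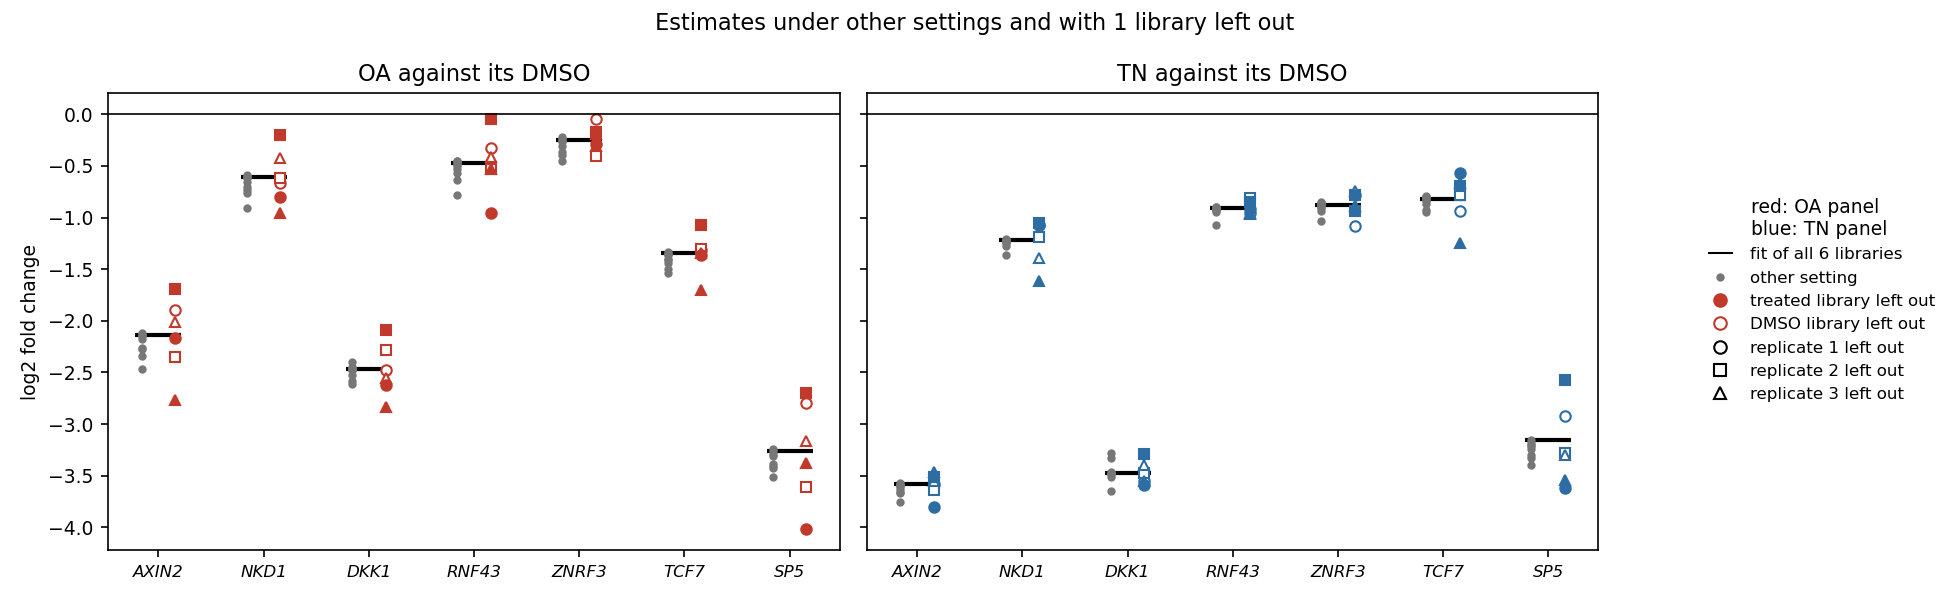
Log2 fold change of the 7 genes in OA (left) and TN (right) under the main fit (black bar), under other settings (grey), and with 1 library left out (coloured symbols). All points lie below 0. Leaving out OA replicate 2 (filled red squares) moves RNF43 to -0.05 and NKD1 to -0.20, while AXIN2 and DKK1 stay at or below -1.69 in every fit.

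Replicates differed widely for several of the genes. In log2 units and against the mean of the DMSO libraries, AXIN2 lay at -2.00, -3.94, and -1.27 in OA replicates 1, 2, and 3. DKK1 lay at -2.22, -3.84, and -1.93. RNF43 lay at 0.18, -1.93, and -0.33, and TCF7 at -1.30, -2.11, and -0.79. For each of these genes replicate 2 was the lowest and replicate 3 was above it by more than 1 log2 unit. In TN, AXIN2 lay at -3.08, -3.64, and -3.86 and DKK1 at -3.15, -3.89, and -3.39, which is a range of less than 1 log2 unit. RNF43, at -0.79, -1.02, and -0.87, and NKD1, at -1.41, -1.59, and -0.68, were also within 1 log2 unit in TN. For SP5, TCF7, and ZNRF3 the spread did not differ in this way between the stressors. SP5 lay at -2.05, -4.25, and -2.43 in OA and at -2.17, -4.57, and -2.41 in TN, and TCF7 lay at -1.26, -1.05, and -0.23 in TN. ZNRF3 was even in OA, at -0.16, -0.36, and -0.12, and in TN, at -0.93, -0.72, and -0.85. Over all other settings and left-out libraries, 208 of 208 estimates of the 7 genes in OA and TN were below 0.

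The rest of the pathway was taken from 7 lists by role, 104 genes in all, with the 10 genes above left out. In OA 70 of them could be tested, and 1 was higher and 1 lower at an adjusted p under 0.05, which is 2.86% beside 4.48% of all genes. In TN 69 could be tested, and 1 was higher and 4 lower, which is 7.25% beside 6.99% of all genes. With the replicate block in TN, 5 were higher and 15 lower, which is 29.0% beside 27.1% of all genes. The shares were thus near the background in all 3 fits. The adjusted p-values that follow come from the same edgeR fits and are adjusted over all genes by Benjamini-Hochberg. They are a description too, since the lists were chosen with earlier results of these data known.

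Of 18 genes for the control of β-catenin in the cytoplasm, which include AXIN1, APC, GSK3B, the casein kinases, and CTNNB1 itself, 0 passed in either treatment in the edgeR fits without a block, where 4.48% of all genes in OA and 6.99% in TN did. With the block 3 of the 18 passed in TN, APC and CTNNB1 as lower and DVL1 as higher, which is 16.7% beside 27.1% of all genes. The list medians were 0.09 in OA and -0.08 in TN. CTNNB1 was at 597, 509, and 531 CPM with DMSO and at 427, 278, and 411 CPM with OA. In the TN experiment it was at 619, 598, and 615 CPM with DMSO and at 418, 496, and 473 CPM with TN. Its stressed libraries were below its DMSO libraries in both experiments, with a log2 fold change of -0.55 ± 0.24 in OA (adjusted p = 0.219) and -0.40 ± 0.17 in TN (adjusted p = 0.210). AXIN1, the constitutive counterpart of AXIN2, had an estimate of 0.65 ± 0.32 in OA (adjusted p = 0.268). TNKS, a tankyrase that marks AXIN proteins for degradation, had estimates of 0.47 ± 0.24 in OA (adjusted p = 0.277) and 0.36 ± 0.18 in TN (adjusted p = 0.275).

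Among the 14 partners and repressors of β-catenin in the nucleus, 12 were tested. In each treatment 1 of them passed, beside 4.48% of all genes in OA and 6.99% in TN, and it was HBP1. This HMG-box protein is a repressor of Wnt target genes and of cell cycle genes. It stood at 25.4, 19.4, and 17.4 CPM with DMSO and at 63.2, 53.4, and 54.4 CPM with OA, and at 24.2, 25.4, and 28.3 CPM with DMSO and at 78.3, 65.0, and 78.6 CPM with TN. All stressed libraries were above all DMSO libraries. On the log2 scale the rise was 1.46 ± 0.26 in OA (adjusted p = 0.0275) and 1.51 ± 0.20 in TN (adjusted p = 0.00777). HBP1 rose by a factor of 2.75 and 2.85. The OA call was lost without OA replicate 3 or any 1 of the DMSO libraries and with scaling to library totals. The TN call was lost without DMSO replicate 2 or 3. Over all fits the estimates ran from 1.27 to 1.71 in OA and from 1.35 to 1.71 in TN. TLE3, a corepressor of TCF proteins, was at -0.90 ± 0.23 in TN (adjusted p = 0.0607), and TCF7L2, the main TCF of the colon epithelium, at -0.70 ± 0.27 in TN (adjusted p = 0.164). In OA the coactivators BCL9L and EP300 had estimates of 0.86 ± 0.30 (adjusted p = 0.135) and 0.55 ± 0.27 (adjusted p = 0.266). With the block TLE3 and TCF7L2 passed as lower in TN, and HBP1 and CTNNBIP1 as higher, which is 33.3% beside 27.1% of all genes.

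At the cell surface, 0 of 14 tested receptors passed in OA and 1 in TN, beside 4.48% and 6.99% of all genes. The receptor gene FZD1 gave 6.78, 7.33, and 7.92 CPM with DMSO and 3.47, 2.85, and 2.40 CPM with TN. It fell by 1.34 ± 0.27 on the log2 scale (adjusted p = 0.0301). In OA its estimate range over other fits was -0.85 to -0.48, with no pass. The receptors of lowest p in OA were FZD4, FZD7, and LGR4, a receptor of R-spondins. FZD4 was lower in every OA library, with an estimate of -1.43 ± 0.44 (adjusted p = 0.103). It passed in 5 of 9 other settings but in 0 of the 6 fits that left out a library. FZD7 had an estimate of 0.77 ± 0.29 (adjusted p = 0.166) and LGR4 of -1.49 ± 0.60 (adjusted p = 0.189). FZD7 passed in 1 of 9 other settings and LGR4 in 2 of 9, and both in 0 of the 6 fits that left out a library. The estimate of LGR4 was -2.11 without OA replicate 1 and -1.04 without OA replicate 2. With the block 4 of the 14 receptors passed in TN, FZD1, FZD3, and FZD4 as lower and FZD2 as higher, which is 28.6% beside 27.1% of all genes. Of the 10 Wnt ligand genes tested in OA and 9 in TN, 1 passed, WNT16 in TN. WNT16 gave 35.5, 49.3, and 47.7 CPM with DMSO and 8.30, 17.5, and 15.9 CPM with TN, and fell by 1.66 ± 0.32 (adjusted p = 0.0262). In OA it went from 29.4, 23.0, and 20.5 CPM to 11.9, 0.398, and 6.21 CPM, with an estimate of -1.97 ± 0.81 (adjusted p = 0.195). WNT10B had the lowest p of the ligands in OA, with an estimate of -1.79 ± 0.43 (adjusted p = 0.0561). It passed in 7 of 9 other settings but in 0 of the 6 fits that left out a library. Other ligands had positive estimates, which were 0.91 ± 0.33 in OA (adjusted p = 0.143) and 0.85 ± 0.36 in TN (adjusted p = 0.205) for WNT9A, and 1.43 ± 0.40 in TN for WNT4 (adjusted p = 0.0765). PORCN, the acyltransferase that Wnt proteins need for secretion, had positive estimates of 1.16 ± 0.30 in OA (adjusted p = 0.0657) and 1.45 ± 0.40 in TN (adjusted p = 0.0711). PORCN passed in 5 of 9 other settings in OA and in 6 of 9 in TN, the block among them. With a library left out it passed in 0 of 6 fits in OA and in 1 of 6 in TN. WLS, which carries Wnt proteins to the surface, was at 0.19 ± 0.36 in OA and 0.38 ± 0.21 in TN. Of the extracellular antagonists other than DKK1, 3 of 13 were tested and 0 passed without the block, whereas KREMEN1, a co-receptor of DKK proteins, passed as lower in TN with it. Its paralog KREMEN2 was at -1.22 ± 0.45 in OA (adjusted p = 0.153) and 0.01 ± 0.29 in TN (adjusted p = 0.984). NOTUM, a secreted enzyme that inactivates Wnt proteins and is another feedback target, was at -0.73 ± 0.44 in OA (adjusted p = 0.357) and -0.88 ± 0.28 in TN (adjusted p = 0.110).

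Of 17 further target genes known from the gut and its tumours, 11 were tested, and 9 of 11 had a negative estimate in each treatment, beside 51.2% of all genes in OA and 51.9% in TN. The list medians were -0.24 in OA and -0.53 in TN. In OA, 1 of the 11 passed, as lower, beside 1.72% of all genes. TNFRSF19, a receptor of the TNF family also called TROY, went from 3.72, 1.34, and 2.59 CPM to 0.368, 0, and 0.207 CPM, with 5, 0, and 2 counts left, and fell by 3.59 ± 0.81 (adjusted p = 0.0473). In TN it was at -1.43 ± 0.45 (adjusted p = 0.104). RGMB, a co-receptor of BMP signals, had a positive estimate of 0.62 ± 0.26 in OA (adjusted p = 0.204). In TN, 2 of the 11 passed as lower, CEMIP and MSX1, beside 3.34% of all genes. CEMIP, a protein of hyaluronan breakdown, went from 11.4, 18.4, and 24.9 CPM to 5.26, 3.40, and 4.11 CPM, and fell by 2.10 ± 0.36 (adjusted p = 0.0171). In OA the libraries of CEMIP overlapped those of DMSO, with an estimate of -1.42 ± 0.81 (adjusted p = 0.333). The OA estimate of CEMIP was -2.58 without OA replicate 3 and -0.94 without OA replicate 2. It passed in 2 of 9 other settings but in 0 of the 6 fits that left out a library. MSX1, a homeobox factor, went from 64.9, 83.1, and 74.8 CPM to 37.6, 40.7, and 45.3 CPM, and fell by 0.85 ± 0.20 (adjusted p = 0.0482). In OA the estimate of MSX1 was -0.08 ± 0.34 (adjusted p = 0.908), and it lay between -0.34 and 0.23 over the other fits. With the block, 6 of 11 passed as lower in TN, beside 15.3% of all genes, and these were BAMBI, CD44, CEMIP, MSX1, SLC12A2, and TNFRSF19. Since this list was chosen with earlier results of these data known, nothing is read from the difference between it and all genes.

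These calls depended on single libraries and on the fit. TNFRSF19 in OA passed only without OA replicate 1 or 2, and it was lost when OA replicate 3 or any 1 of the DMSO libraries was left out. In TN, WNT16, FZD1, and MSX1 passed in 1 of 6 such fits, the one without TN replicate 1, and CEMIP in that one and in the one without DMSO replicate 1. With 1 fit of all 12 libraries WNT16, CEMIP, and MSX1 did not pass, with adjusted p of 0.183, 0.0955, and 0.121 from edgeR. TNFRSF19 did not pass with library totals, nor MSX1 without a filter or with the size factors of DESeq2. None of the called estimates changed sign. They ranged from -4.56 to -3.04 for TNFRSF19 in OA, and in TN from -1.86 to -1.35 for WNT16, -1.51 to -1.26 for FZD1, -2.34 to -1.82 for CEMIP, and -0.99 to -0.74 for MSX1.

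**Figure D4:**
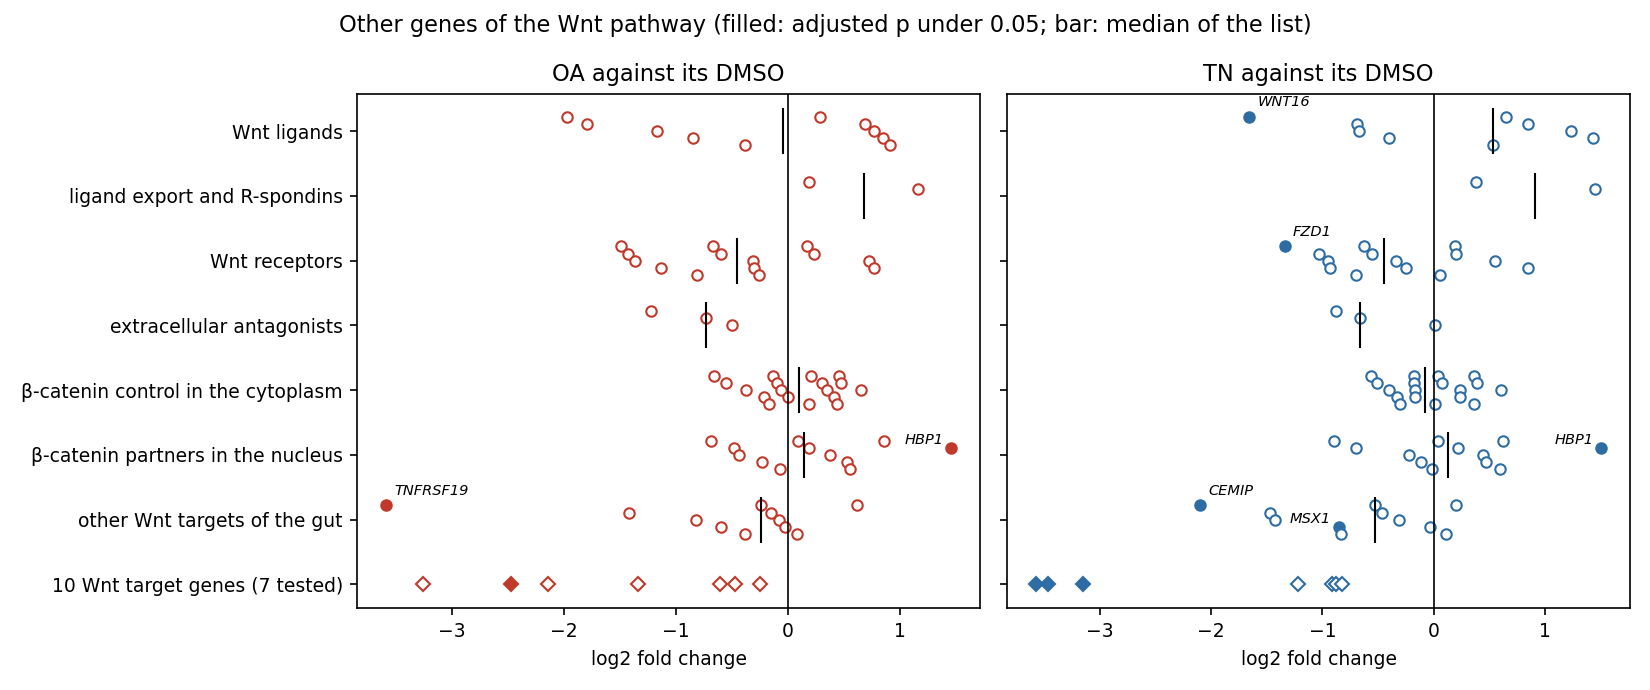
Log2 fold change of each tested gene of the 7 Wnt lists in OA (left) and TN (right). Filled points passed at an adjusted p under 0.05 and are named, vertical bars are list medians, and diamonds are the 7 tested genes of the main set. Only 2 genes of the lists passed in OA and 5 in TN, with HBP1 to the right of 0 in both.

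The profile of AXIN2 and of DKK1 over the 12 libraries was compared with that of all 14070 genes tested in both treatments. For this, log2 CPM was centred on the mean of the DMSO libraries of the same experiment, and Pearson's r is given as a description. The 12 points share the treatment groups and the scaling of each library, so a high r is common among genes that were lower under stress. The genes most like AXIN2 were MKI67 (r = 0.985), which encodes the proliferation antigen Ki-67, NASP (r = 0.984), a histone chaperone, and XPO4 (r = 0.981), a nuclear transport receptor. Those most like DKK1 were EXO1 (r = 0.990), an exonuclease of DNA repair, WDR76 (r = 0.989), a WD repeat protein, and MGME1 (r = 0.989), an exonuclease of mitochondrial DNA. DKK1 was number 25 in the order of likeness to AXIN2 (r = 0.968), and AXIN2 was number 50 in that to DKK1. SP5 was number 231 for AXIN2 (r = 0.914) and number 377 for DKK1 (r = 0.905). ZNRF3 was the member least like DKK1 (r = 0.692), at number 2007.

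The 3 genes most like AXIN2 had smaller log2 fold changes than AXIN2 itself. MKI67 went from 101 to 167 CPM in the 6 DMSO libraries to 49.3, 31.7, and 75.6 CPM in OA and 53.9, 36.1, and 32.7 CPM in TN. Its log2 fold change was -1.42 ± 0.36 in OA and -1.86 ± 0.25 in TN. EXO1 was at -2.33 ± 0.39 and -2.91 ± 0.25, against -2.47 ± 0.46 and -3.47 ± 0.27 for DKK1. In OA all 6 had the order of replicates of AXIN2 and DKK1, with replicate 2 lowest and replicate 3 highest. They were chosen by likeness over these same libraries, so nothing is read from the shared order.

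**Figure D5:**
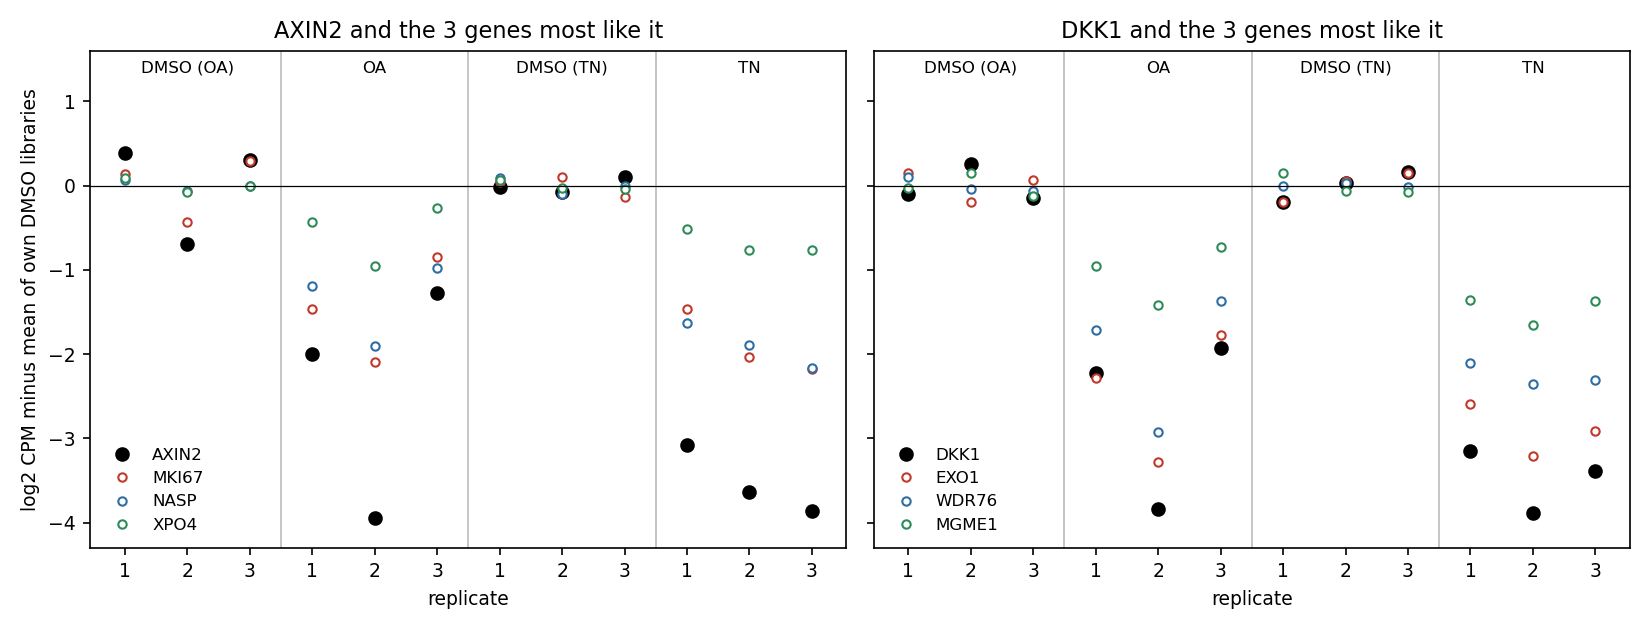
Log2 CPM minus the mean of the DMSO libraries of the same experiment, in each of the 12 libraries, for AXIN2 (left) and DKK1 (right) and the 3 genes most like each (open circles). All 8 genes lie below 0 in all 6 stressed libraries, with OA replicate 2 the lowest of the OA libraries, and AXIN2 and DKK1 reach down to -3.94 and -3.89.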

How the data were processed

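RNA of the 12 libraries was prepared with a kit for stranded total RNA according to the labels, whereas the study calls the assay mRNA-seq. The authors aligned reads to hg38 with STAR, counted them per gene with a Gencode annotation, and deposited raw counts without normalization. The strand column is not given in the sources used here. The deposited DESeq2 tables with log2 fold change, p-value, and adjusted p-value of the authors were not used. All value columns could be assigned to a library. No 2 libraries of a group agreed within sampling noise. Library totals, the floor of 3 counts, and the 3 replicates limit precision. The floors rest on counts and cover counting error only. Standard errors and intervals take in the spread between these cultures, and p-values set a difference against that spread.

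Counts were scaled by TMM, filtered with filterByExpr, and tested with edgeR 4.0.16 under R 4.3.3 (quasi-likelihood F test, two-sided), in separate fits for OA and TN, and p was adjusted by Benjamini-Hochberg over every gene tested. Standard errors were derived from the log2 fold change and its F statistic, and intervals span 2 of them on either side. Log2 CPM had a prior count of 2. Exon lengths and coordinates are from a Gencode annotation of hg38, promoters from RefSeq. For TN the deviations of same-numbered libraries correlated with 0.64, 0.41, and 0.43 across genes, each above the limit of 0.1 set for this. The numbers in the labels were therefore taken as pairs. Calls with the number as a block are given beside those of the main fit, which has no block. Libraries 2 and 3 also correlated across numbers, with 0.38 and 0.44, so the check does not single out those pairs, and the pairing rests on it and on the numbers alone.

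The 10 genes, the lists, and the rules were chosen with earlier results of these data known. Named were the 10 genes, from each list and treatment up to 3 genes of lowest p, the 3 genes most like AXIN2 and DKK1, and overlapping genes. APC, DVL1, CTNNBIP1, FZD3, BAMBI, CD44, and SLC12A2 fall outside this rule or were named for their call under the block, after their values were seen. Alternatives were DESeq2 1.42.0, its size factors in edgeR, library totals, no filter, a minimum of 10 counts per library, the replicate number as a block, all 12 libraries in 1 fit, GC offsets with and without the block, and leaving out each library. The scripts were tested on simulated data.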

Additional observations from a re-analysis of the deposited data

How the results depend on the processing

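All estimates of the 7 genes in OA and TN stayed below 0 under every setting run, and 447 of 452 estimates over the 4 comparisons stayed within 1 standard error. The 5 that moved further were not called in the main fit, and none of the 452 was a called value with a changed sign. They were RNF43 in OA without OA replicate 1 (-0.96), AXIN2 in OA without OA replicate 3 (-2.77), NKD1 (-1.61) and TCF7 (-1.25) in TN without TN replicate 3, and DKK1 between the DMSO sets with GC offsets (-0.01). Counts of calls moved more. In OA, 658 genes and 1 of the 7 passed, and this became 1633 and 4 with DESeq2, 1572 and 3 without a filter, 1681 and 4 in 1 fit of all libraries, 2386 and 3 with GC offsets, 3804 and 4 with GC offsets and the replicate block, and 0 of the 7 with library totals. With 1 library left out, 3 to 1179 genes and 0 to 1 of the 7 passed in OA. In TN, 1009 genes and 3 of the 7 passed, and this became 1719 genes with DESeq2, 1648 without a filter, 3158 and 5 with GC offsets, and 5440 and 7 with GC offsets and the replicate block. With 1 library left out, 151 to 2361 genes and 2 to 4 of the 7 passed in TN. The replicate block gave 3914 genes and 4 of the 7 in OA, where the same-numbered pairs correlated with 0.62, 0.54, and 0.09 so that the libraries were not taken as paired, and 3915 genes and 6 of the 7 in TN. For the difference between the stressors, 0 genes became 25 without a filter, 6 with GC offsets and the replicate block beside 0 with GC offsets alone, and 0 to 4 with a library left out, the 4 without OA replicate 2, and in that comparison RNF43 was below 0 in 1 and SP5 not below 0 in 6 of the 12 fits that left out a library. Between the DMSO sets 0 became 23 with DESeq2, 116 without a filter, and 0 to 115 with a library left out, the 115 without the first DMSO replicate of TN. The block on its own changed no call in these 2 comparisons. Scaling to library totals moved the median of all genes to -0.23 in OA and -0.18 in TN and the share of higher calls from 61.6% to 47.1% and from 52.2% to 37.7%, and the block moved that share to 43.8% in OA. SP5 has no value in OA and TN when at least 10 counts in every library are required. The cause of these shifts was not tested. Depth limits LGR5, LEF1, ASCL2, and the stressed libraries of SP5.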

Other observations

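CDH1, which encodes E-cadherin, the membrane partner of β-catenin, was named after its values were seen. It was the 1 of 6 tested epithelial markers that passed in each treatment, beside 4.48% of all genes in OA and 6.99% in TN. Other markers had estimates in the opposite direction, such as CDX2 with -0.76 ± 0.29 in OA and -0.42 ± 0.35 in TN. EPCAM was at -0.23 ± 0.36 in OA. CDH1 was at 35.0 ± 2.12 CPM (SD, n = 3) with DMSO and 123 ± 49.0 with OA, and at 40.8 ± 5.50 with DMSO and 132 ± 16.1 with TN. In edgeR's quasi-likelihood test it rose by 1.81 ± 0.31 on the log2 scale in OA (Benjamini-Hochberg adjusted p = 0.0271) and by 1.69 ± 0.21 in TN (adjusted p = 0.00677), with no overlap between stressed and DMSO libraries in either experiment. Over the other settings the adjusted p ranged from 2.62e-05 to 0.0259 in OA and from 1.50e-07 to 0.0170 in TN. The OA call was lost when OA replicate 3 or any 1 of its DMSO libraries was left out, and the TN call when DMSO replicate 2 or 3 was left out.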
